A study of Zea mays subsp. mays with 8 samples.

Results

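Start sites of transcription in maize (Zea mays subsp. mays) seedlings were read by CAGE (cap analysis of gene expression), in which the cap of an RNA is caught and a short tag is read from its first base on. The loci described here are start regions whose strongest base, the dominant site, lay at a different position in the 2 lines studied while roots and shoots of each line had the same dominant site. Clusters of start sites on the same strand that overlapped by at least 1 bp were merged over the 4 deposited sets into 27756 loci, of which 9804 held exactly 1 cluster of each set. In 3874 of these the tissues agreed within both lines, and in 498 of those 3874 the lines differed. These 498 moved loci are 12.9% of the agreeing loci (95% Wilson interval 11.8 to 13.9) and 5.08% of the 9804. The remaining 3376 agreeing loci had the same dominant site in all 4 sets.

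The labels describe 8 libraries, 2 each from shoots and roots of wild-type, untreated B73 and A632, both inbred lines of maize, with 5 seedlings 14 days old pooled per library. PCR ran for 16 cycles on the B73 root libraries and for 14 on all others. The deposited sets are named B73_R, B73_S, Mo17_R and Mo17_S. The letters R and S are read here as root and shoot, and the second line is called Mo17-named, since Mo17, another inbred line, is in none of the labels while A632 is. Libraries are not separated in the sets, which give 1 value per cluster, so replicate error is unknown for every value below. The agreement of roots and shoots within a line is what the rule required, so it is no separate repeat of the difference between lines. The members were chosen on the dominant sites of this same contrast, and the values below describe them without a test. Wilson intervals take loci as independent and cover counting error only.

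RNA polymerase II rarely starts at a single base. At a sharp promoter most transcripts begin within a few bases, often at a fixed distance from a TATA box, while at a broad promoter they are spread over many bases with several alternative positions. The choice of start base depends in part on short core promoter sequences around it, and its position fixes the length of the 5′ leader of the transcript. No cluster carries a gene name in the files, and no source used here names their genome build, so loci are named by the files' coordinates and no sequence is shown.

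The rule selected a small part of a common difference. The dominant site differed between the lines at 5266 of the 9804 loci in roots, a background of 53.7%, and at 3479 in shoots, a background of 35.5%. At 2538 loci it differed in both tissues, and the 498 moved loci made up 19.6% of these. In 1138 of the 2538 neither line had the same site in its root and shoot, and in 902 only 1 line did. Both tissues agreed at 49.6% of the 9804 loci in B73 and at 71.2% in the Mo17-named sets. A site that differed between root and shoot and was shared by the lines was found at 221 loci (2.25%, 1.98 to 2.57).

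The sites of the moved loci lay a median of 16 bp apart, with quartiles of 4 and 46 bp and a range of 1 to 174 bp. The 498 loci were split evenly over the strands, with 249 on each. Strand-aware, the Mo17-named site was downstream of the B73 site, in the direction of transcription, at 244 loci (48.996%, 44.6 to 53.4) and upstream at 254. The median distance was 21.5 bp for downstream and 11 bp for upstream moves. Moves of 1 to 3 bp made up 114 loci, moves of 4 to 10 bp 104, moves of 11 to 50 bp 172 and moves over 50 bp 108. At the edge of the rule, 50 loci had sites 1 bp apart, against the 3376 at 0 bp that were left out.

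Taken over both strands, short moves were upstream more often than longer ones. Among the 114 loci with sites 1 to 3 bp apart, the Mo17-named site was upstream at 75 (65.8%, 56.7 to 73.9). It was upstream at 33 of the 50 loci 1 bp apart, at 24 of the 38 loci 2 bp apart and at 18 of the 26 loci 3 bp apart. By strand, these short moves were upstream at 29 of 52 loci on the plus strand (55.8%, 42.3 to 68.4), where the interval includes an even split. On the minus strand they were upstream at 46 of 62 (74.2%, 62.1 to 83.4). With at least 20 tags at the dominant site in all 4 sets, 25 of 38 short moves were upstream (65.8%, 49.9 to 78.8), an interval that reaches an even split. Over 10 bp, 128 of 280 loci were upstream (45.7%, 40.0 to 51.6).

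**Figure D1:**
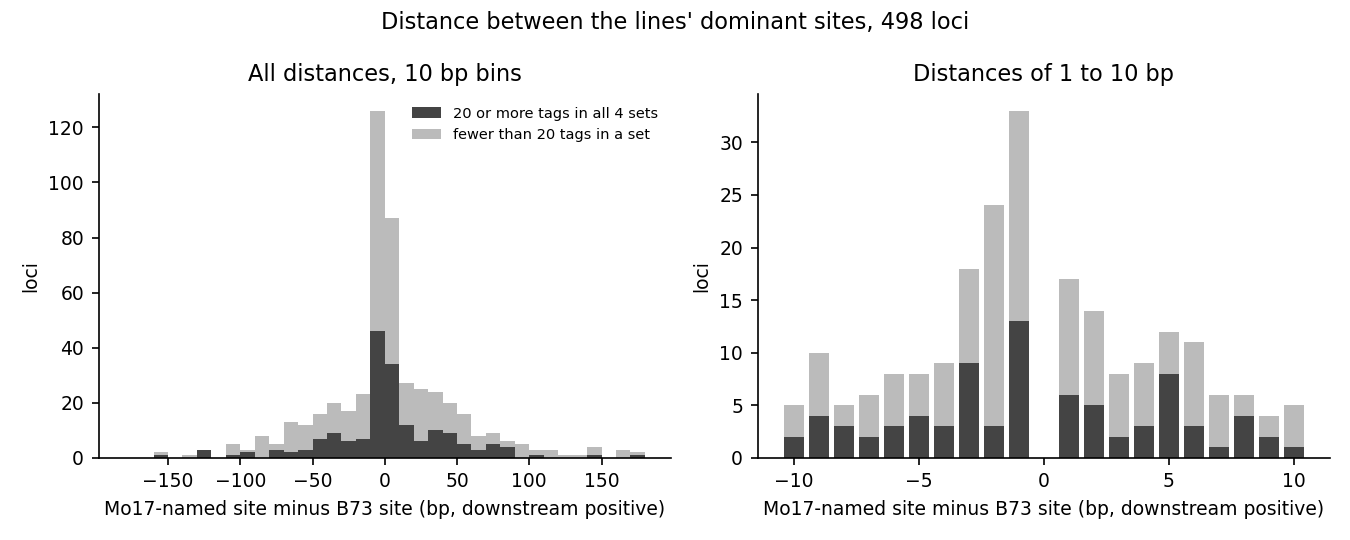
Number of moved loci by the signed distance from the B73 to the Mo17-named dominant site in bp, positive downstream, for all 498 loci in 10 bp bins on the left and for distances of 1 to 10 bp on the right; dark bars are the 181 loci with at least 20 tags in all 4 sets. The bars fall off on both sides of 0, and the 33 loci at 1 bp upstream are the most at any distance, against 17 at 1 bp downstream.

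How firmly the dominant site was set depends on its tags, the sequenced 5′ ends, whose number was recovered from the deposited signal. Over the moved loci the median tags at the dominant site were 24.5 in B73 root, 30 in B73 shoot, 35 in Mo17-named root and 32 in Mo17-named shoot. At the same-site loci these medians were 36, 47, 79 and 72, and over the 9804 loci 21, 30, 44.5 and 43. Of the moved loci 181 (36.3%) had at least 20 tags in all 4 sets, against 39.3% of the 9804 loci and 60.5% of the same-site loci. The share of agreeing loci that had moved was lower where the lowest of the 4 tag numbers was higher. It was 26.0% (21.2 to 31.3) below 5 tags, 25.7% from 5 to 9, 13.7% from 10 to 19, 9.90% from 20 to 49, 7.57% from 50 to 99 and 4.72% (3.14 to 7.04) from 100 to 999. Of 37 agreeing loci with at least 1000 tags in every set, 0 had moved, for which the interval reaches 9.41%.

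Whether a dominant site stood above the other line's site was bounded from the deposited signal. Signal outside the dominant site, if all of it fell on a single other base, gives the most tags that the other line's site can have had. A site outside the cluster was counted as having 0 listed tags, and the cluster's other bases were then not compared. By that bound the lead of the dominant site over the other line's site was beyond counting error (exact binomial 95% interval) in 208 of the 498 loci in B73 root, 174 in B73 shoot, 209 in Mo17-named root and 192 in Mo17-named shoot. It was beyond counting error in all 4 sets at 55 loci (11.04%, 8.58 to 14.1). The dominant site was already chosen as the strongest base of its cluster, and the interval makes no allowance for that choice. The lead thus describes the loci and is no test of the move. At the other loci the files do not show how close the other site came. At 10 of the 55 the other site lay inside all 4 clusters. At the remaining ones it was outside at least 1 cluster, where a few tags suffice against a listed 0, so the lead shows little there. The 55 loci had a median distance of 18 bp, a range of 1 to 156 bp, and a Mo17-named site downstream at 33 (60.0%, 46.8 to 71.9). Of the 8 short moves of 1 to 3 bp among them 2 were upstream (interval 7.15% to 59.1%), the opposite direction to that of all short moves.

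The 6 moved loci with the most tags in their weakest set show the range of such moves. On the plus strand of chromosome 5 the B73 site was 6694299 and the Mo17-named site 6694303, 4 bp downstream. Tags at the dominant site were 1172 in B73 root and 406 in B73 shoot, against 5804 in Mo17-named root and 2474 in Mo17-named shoot. The dominant base held 75.0% and 64.6% of the cluster's signal in B73 and 88.4% and 88.3% in the Mo17-named sets. The width between the 10th and 90th percentiles of the signal was 5 and 7 bp in B73 and 1 bp in both Mo17-named sets, so the Mo17-named clusters were narrower. The lead was beyond counting error in all 4 sets.

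A locus on the minus strand of chromosome 1 had its sites at 22438539 in B73 and 22438534 in the Mo17-named sets, 5 bp downstream. Behind the B73 site were 214 root and 532 shoot tags, and behind the Mo17-named site 13555 and 29792. Scaled to the tags of each set, the Mo17-named number was 28.7 times the B73 number in roots (95% exact interval 25.1 to 33.0) and 39.3 times in shoots (36.1 to 42.9). Such intervals treat each tag as its own molecule, although PCR copies are counted too. In the Mo17-named sets 96.2% and 92.5% of the signal fell on the dominant base. Here the dominant base and the signal of the region differed together.

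For a locus on the minus strand of chromosome 4 the B73 site was 20572790 and the Mo17-named site 20572750, 40 bp downstream. Tags were 326 and 851 in B73 root and shoot and 440 and 260 in the Mo17-named root and shoot. The B73 width was 41 bp in both tissues and the Mo17-named width 4 bp in both. The Mo17-named site lay inside both B73 clusters, while the Mo17-named clusters ended at 20572780, 10 bp short of the B73 site. The B73 region was thus broad and listed over both positions, and the Mo17-named region was sharp and listed at the downstream position.

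A plus-strand locus of chromosome 3 had its sites at 95281761 in B73 (795 tags in root, 252 in shoot) and 95281804 in the Mo17-named sets (1093 and 916), 43 bp downstream. All 4 clusters spanned both sites, with widths of 47 and 99 bp in B73 and 44 and 45 bp in the Mo17-named sets. The other 2 loci were sharp in all sets and moved 2 bp upstream. The first, on the plus strand of chromosome 10, had its sites at 14767678 in B73 (394 and 570 tags in root and shoot) and 14767676 in the Mo17-named sets (458 and 1613). For the second, on the plus strand of chromosome 1, they were 122169873 in B73 (212 and 220 tags) and 122169871 in the Mo17-named sets (462 and 674). In these 3 loci, as in the one on chromosome 4, the bound did not place the lead beyond counting error in every set.

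**Figure D2:**
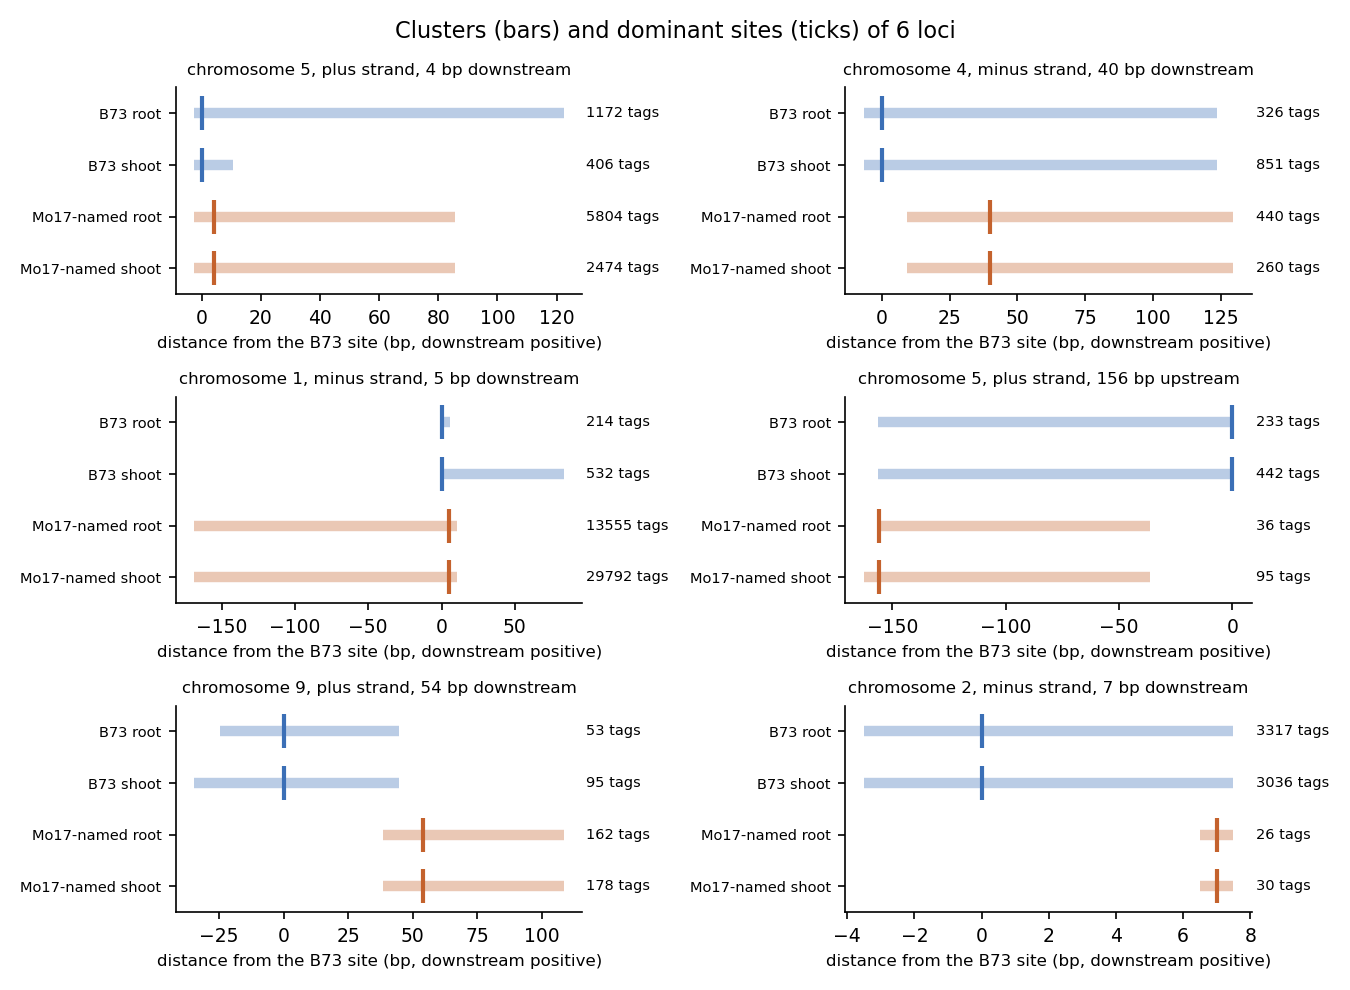
Start regions of 6 moved loci by distance from the B73 dominant site in bp, positive downstream; bars span each deposited cluster, ticks mark the dominant site, blue is B73, orange is Mo17-named, and tags at the dominant site stand at the right. Root and shoot ticks coincide within each line, and the offsets between lines are 4, 40, 5, -156, 54 and 7 bp, read from left to right and top to bottom.

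The closest moves are at the resolution of the method. On the plus strand of chromosome 4 the sites were 3265215 in B73 and 3265216 in the Mo17-named sets, 1 bp downstream. Tags were 127 and 747 in B73 root and shoot and 626 and 1647 in the Mo17-named root and shoot. The dominant base held 67.0% and 65.2% of the signal in B73 and 75.4% and 80.7% in the Mo17-named sets, and the lead was beyond counting error in all 4 sets. Another, on the plus strand of chromosome 6, had its sites at 164882520 and 164882519, 1 bp upstream, with 334 and 138 tags in B73 and 333 and 232 in the Mo17-named sets. A further locus, on the plus strand of chromosome 8, had them at 132711342 and 132711341, 1 bp upstream, with 463 and 169 tags in B73 and 206 and 93 in the Mo17-named sets. At these last 2 loci a neighbouring base could hold as many tags in at least 1 set. Sites 2 bp apart, 32114864 in B73 and 32114862 in the Mo17-named sets, lay on the minus strand of chromosome 5, the Mo17-named site downstream. There the dominant base held between 29.3% and 35.6% of the signal in all 4 sets, so this region had no strongly preferred base in either line.

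At the widest downstream moves with at least 20 tags in all sets, the clusters of only 1 line took in both sites. The first, on the plus strand of chromosome 8, had its site at 173973107 in B73 (30 tags in root, 145 in shoot) and at 173973277 in the Mo17-named sets (950 and 262), 170 bp downstream. The B73 clusters ended at 173973141 and 173973156 and did not reach the Mo17-named site, while the Mo17-named widths of 171 and 172 bp took in both positions. The second, on the minus strand of chromosome 4, had its sites at 77641029 in B73 (152 and 87 tags) and 77640886 in the Mo17-named sets (38 and 66), 143 bp downstream. Its Mo17-named clusters reached only to 77640962, short of the B73 site. The third, on the minus strand of chromosome 1, had them at 293655110 in B73 (63 and 30 tags) and 293655003 in the Mo17-named sets (52 and 46), 107 bp downstream. Its B73 clusters reached only to 293655016, short of the Mo17-named site.

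Upstream, the widest move with at least 20 tags in all sets was on the plus strand of chromosome 5. It went from 73077116 in B73 (233 and 442 tags) to 73076960 in the Mo17-named sets (36 and 95), 156 bp apart. The B73 base held 94.9% and 90.7% of its cluster's signal, and the Mo17-named clusters stopped at 73077079, short of that base. The Mo17-named position was the far end of the B73 clusters, where at most 15 root tags and 34 shoot tags can have fallen. A minus-strand locus of chromosome 1 followed, with 96319446 in B73 (64 and 74 tags) and 96319575 in the Mo17-named sets (34 and 24), 129 bp apart. A locus at the same distance on the minus strand of chromosome 9 had its sites at 149519131 in B73 (53 and 32 tags) and 149519260 in the Mo17-named sets (57 and 20).

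Whether the lines shared a start region depended on how its edges were drawn. At 280 of the 498 loci (56.2%, 51.8 to 60.5) each line's dominant site lay inside the other line's cluster in both tissues. With the interquantile stretch (10th to 90th percentile) in place of the whole cluster this share was 36.9%, and among the 55 loci with a lead in all sets it was 18.2% for whole clusters. At 98 loci (19.7%) the Mo17-named site was inside both B73 clusters while the B73 site was inside neither Mo17-named cluster, and at 71 (14.3%) it was the reverse. At 39 loci the 2 tissues gave different answers. At 10 loci (2.01%, 1.09 to 3.66) neither line's site lay inside a cluster of the other. Shared regions were 68.3% of loci with sites 1 to 10 bp apart and 46.8% of loci with sites further apart. Since clusters had to overlap to form a locus, a share of this kind is partly built in.

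Of the loci with separate positions, the one with the most tags in its weakest set lay on the plus strand of chromosome 9, at 148149532 in B73 (53 and 95 tags) and 148149586 in the Mo17-named sets (162 and 178), 54 bp downstream. Its B73 clusters ended at 148149576 and its Mo17-named clusters began at 148149571. A locus on the plus strand of chromosome 1 had its sites at 203370049 in B73 (28 and 33 tags) and 203369972 in the Mo17-named sets (34 and 34), 77 bp upstream. Sites on the minus strand of the same chromosome were 275161475 in B73 (78 and 24 tags) and 275161510 in the Mo17-named sets (370 and 79), 35 bp upstream. Those on the minus strand of chromosome 2 were 214664607 (9 and 13 tags) and 214664676 (24 and 26), 69 bp upstream. A base outside a listed cluster is not shown to be silent.

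The moved loci were broader than the same-site loci and nearer to the 9804 loci. A cluster was called sharp when its interquantile width was at most 10 bp. Sharp clusters made up 42.0% of moved loci in B73 root, 29.9% in B73 shoot, 36.5% in Mo17-named root and 31.7% in Mo17-named shoot. At the same-site loci these shares were 63.2%, 52.8%, 56.1% and 51.8%, and over the 9804 loci 48.0%, 38.3%, 40.9% and 37.4%. Median widths were 22, 37, 24 and 35 bp at the moved loci, 4, 9, 7 and 9 bp at the same-site loci, and 12, 28, 23 and 29 bp over the 9804 loci. The dominant base held a median of 60.1%, 50%, 54.0% and 49.97% of the signal at the moved loci, in the same order of sets, and 72.6%, 65.2%, 69.0% and 64.3% at the same-site loci. Over the 9804 loci it held 57.5%, 52.4%, 54.7% and 50.6%, about as much as at the moved loci. Clusters of a single base, which leave no room for a second site, were at most 1.81% of moved and at least 8.80% of same-site loci in any set. Tags were fewer at the moved loci as well, and values at 20 or more tags follow.

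Read the other way, 5.97% (4.86 to 7.30) of the 1458 agreeing loci that were sharp in all 4 sets had moved, against 18.3% (16.2 to 20.7) of the 1156 that were broad in all 4. With at least 20 tags in all sets these shares were 3.41% of 968 and 12.9% of 566. The 87 moved loci that were sharp in all sets had a median distance of 2 bp, and the 212 that were broad in all sets 35.5 bp. The farthest move among the former was 61 bp. Of all moved loci 17.5% were sharp in all sets, against 26.8% of the 9804 loci and 40.6% of the same-site loci. Among the 55 moved loci with a lead in all sets this share was 32.7% (21.8 to 45.9). That interval takes in both other shares, so these 55 were not shown to be broader.

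The shape of the region differed between the lines at some loci as well. At 38 moved loci (7.63%) both B73 clusters were sharp and both Mo17-named clusters broad, beside a background of 4.24% over the 9804 loci. At 39 (7.83%) it was the reverse, beside a background of 3.12%. At the same-site loci these shares were 3.52% and 2.19%. The counts in the 2 directions were thus nearly equal among the moved loci.

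**Figure D3:**
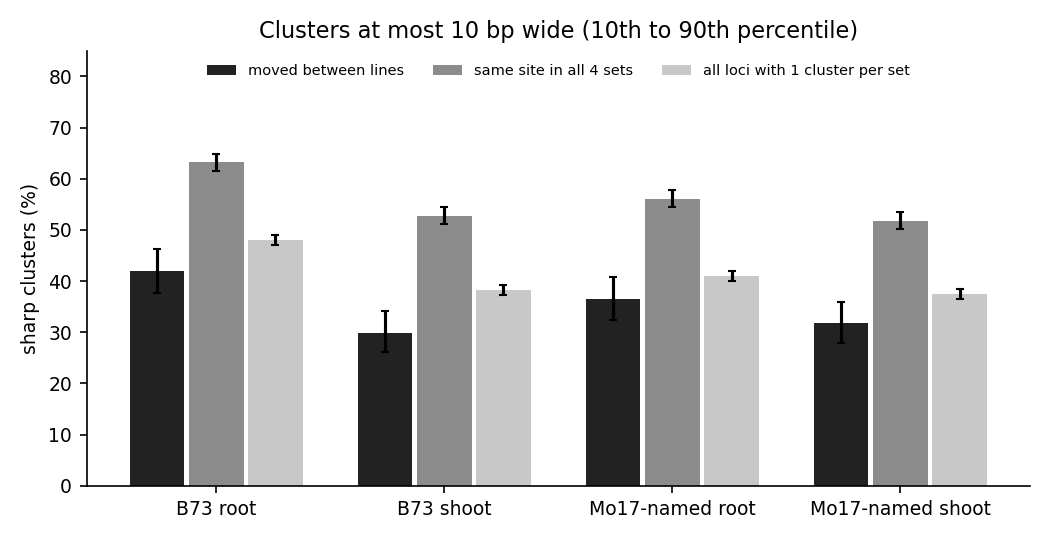
Share of sharp clusters (interquantile width at most 10 bp) in percent for each of the 4 sets, at the 498 moved loci, the 3376 same-site loci and all 9804 loci with 1 cluster of each set; error bars are 95% Wilson intervals over loci. The moved loci stand lowest in every set, from 29.9% in B73 shoot to 42.0% in B73 root.

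Signal, the authors' normalized level of a cluster, was then compared between lines at the moved loci. Its median was 7.86 in B73 root, 12.2 in B73 shoot, 10.5 in Mo17-named root and 11.4 in Mo17-named shoot. It ranged from 0.267 to 1700 in B73 root and from 0.486 to 2203 in Mo17-named shoot. A fixed size of 4-fold on log2(signal + 1), with the higher signal at least 1, stood in for a test. That scale understates differences of weak clusters.

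In roots 67 moved loci (13.5%) were at least 4-fold higher in the Mo17-named set, beside a background of 10.1%, and 40 (8.03%) were higher in B73, beside 1.81%. In shoots 22 (4.42%) were higher in the Mo17-named set, beside 1.86%, and 35 (7.03%, 5.10 to 9.62) were higher in B73, beside 1.7%. At same-site loci B73 was higher by this size at 0.592% in roots and 0.474% in shoots. A 4-fold difference with B73 higher was thus more frequent among moved than among same-site loci in both tissues. Either way, 107 moved loci (21.5%) were 4-fold apart in roots, beside 11.9%, and 57 (11.4%) in shoots, beside 3.56%. In both tissues together, 13 moved loci were higher in the Mo17-named sets (2.61%, beside 0.694%) and 18 in the B73 sets (3.61%, beside 0.816%). At 365 moved loci (73.3%) neither tissue passed the 4-fold rule, against 86.1% of the 9804 loci and 89.1% of the same-site loci. The difference was under 2-fold in both tissues at 171 moved loci (34.3%), against 43.7% and 49.1%, so signals of similar size were less frequent among the moved loci.

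The direction split depended on the scale of the values. The median log2 difference of Mo17-named minus B73 over the 9804 loci was 0.73 in roots and 0.32 in shoots on the deposited signal and -0.06 and 0.03 on recovered dominant-site tags scaled to the total of the set. At the moved loci it was 0.57 and -0.06 on the deposited signal, and -0.33 and -0.27 on tags. In roots 62.6% of the 4-fold differences at moved loci had the Mo17-named set higher on the deposited signal, 30.1% on tags and 27.9% after quantile normalization. In shoots these shares were 38.6%, 29.5% and 27.1%. At same-site loci they were 93.7%, 56.2% and 58.2% in roots and 77.5%, 56.5% and 50.7% in shoots. Over the 9804 loci they were 84.8%, 46.2% and 44.1% in roots and 52.1%, 40.6% and 34.3% in shoots. The majority direction in roots thus flips with the scale at the moved loci and over the 9804 loci alike. In shoots B73 led on all 3 scales at the moved loci, and over the 9804 loci on tags and after quantile normalization.

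The largest differences with the Mo17-named sets higher in both tissues included the locus at 22438539 on chromosome 1, with a signal of 59.3 and 110 in B73 root and shoot and 2099 and 2204 in the Mo17-named sets. Its log2 differences were 5.12 in roots and 4.32 in shoots. For a plus-strand locus of chromosome 6, with sites at 129853315 in B73 and 129853349 in the Mo17-named sets, 34 bp downstream, the signal was 0.575 and 3.52 in B73 and 71.9 and 48.7 in the Mo17-named sets. The B73 site rested on 3 root and 6 shoot tags there, against 464 and 320. On the plus strand of chromosome 2, with sites at 128137345 and 128137284, 61 bp upstream, the signal was 4.45 and 5.27 in B73 and 157 and 69.6 in the Mo17-named sets. Its Mo17-named base held 97.4% and 94.8% of the signal.

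With B73 higher, the largest difference was on the minus strand of chromosome 2, with sites at 209957236 in B73 and 209957229 in the Mo17-named sets, 7 bp downstream. Its signal was 1700 and 367 in B73 root and shoot and 3.68 and 4.80 in the Mo17-named sets, log2 differences of -8.51 and -5.99. Tags at the dominant site were 3317 and 3036 in B73 and 26 and 30 in the Mo17-named sets, whose clusters held that single base. It lay at the downstream edge of the B73 clusters, which ran from 209957229 to 209957239. The strong B73 base was therefore not listed in the Mo17-named sets, while a base 7 bp away was.

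On the plus strand of chromosome 1, with sites at 85027919 and 85027909, 10 bp upstream, the signal was 120 and 101 in B73 and 2.24 and 1.27 in the Mo17-named sets. The Mo17-named site rested on 8 and 3 tags there. On the minus strand of chromosome 5, with sites at 7531723 and 7531724, 1 bp upstream, the signal was 96.5 and 185 in B73 and 5.07 and 3.41 in the Mo17-named sets. Loci picked for extreme values overstate such differences.

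**Figure D4:**
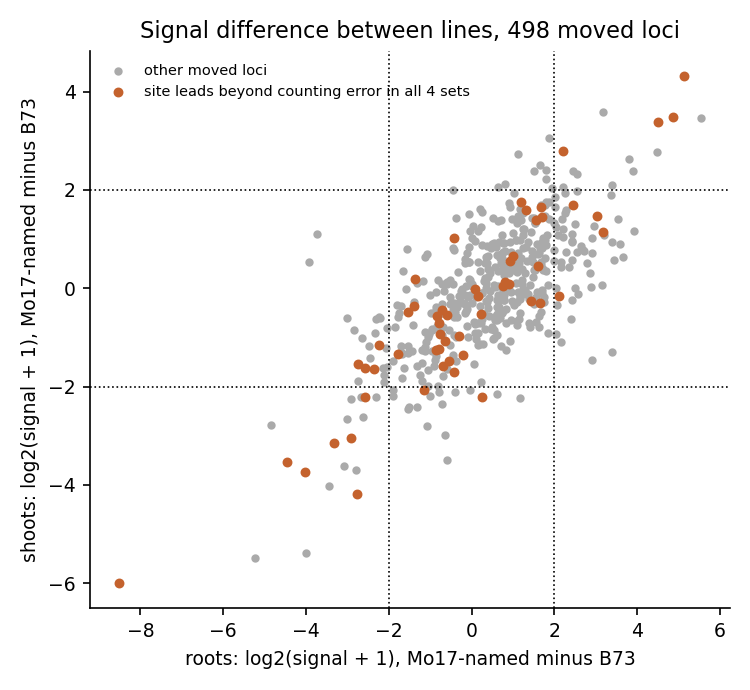
Difference of log2(signal + 1), Mo17-named minus B73, in roots (x axis) and shoots (y axis) for the 498 moved loci. Dotted lines mark 4-fold on the deposited signal. Orange points are the 55 loci whose dominant site leads the other line's site beyond counting error in all 4 sets. Points lie on both sides of 0, with 13 beyond 4-fold with Mo17-named higher in both tissues and 18 with B73 higher in both.

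Between tissues the moved loci had signal differences of the size found elsewhere. In B73, root was at least 4-fold higher at 19 moved loci (3.82%) and shoot at 58 (11.6%), against 3.90% and 14.6% of the 9804 loci. In the Mo17-named sets root was higher at 20 (4.02%) and shoot at 36 (7.23%), against 5.11% and 9.32%. Of the moved loci 12 (2.41%) lay in dense runs of clusters, against 4.09% of the 9804 loci.

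Chromosome 10 held few moved loci, a feature singled out after the values had been seen. It had 9 of them among 267 agreeing loci (3.37%, 1.78 to 6.28), while the shares on the other 9 chromosomes lay between 11.5% on chromosome 3 and 15.2% on chromosome 5. With at least 20 tags in all sets, 2 of 159 agreeing loci on chromosome 10 had moved (1.26%), against 6.61% to 11.8% on the others. The sites of the 9 loci were 1 to 91 bp apart, with 1 of them over 10 bp, beside 56.2% of all moved loci. The lead was beyond counting error in all 4 sets at 0 of the 9. That share was 11.04% over all moved loci, too low for 9 loci to show a difference. No agreeing locus had moved between the sites 114716061 and 142212906, a stretch with 74 agreeing loci. The next longest such stretch by number of loci, from 19948021 to 69563197 on chromosome 3, held 64. It spanned 49.6 Mb, against 27.5 Mb for the one on chromosome 10. Chromosome 3 had a further such stretch from 96885394 to 134792100, with 43 agreeing loci. Long stretches without a moved locus were thus not particular to chromosome 10.

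Other readouts of chromosome 10 were nearer to those of the rest. The site differed between lines at 48.0% of its loci in roots, against 50.9% to 56.2% on the other chromosomes, and at 27.1% in shoots, against 33.0% to 38.9%. Between root and shoot the site differed at 46.3% in B73, against 46.8% to 53.3%, and at 31.2% in the Mo17-named sets, against 26.5% to 30.8%. Signal was 4-fold apart between lines at 9.94% in roots, against 10.3% to 14.0%, and at 2.91% in shoots, against 2.95% to 4.20%. The median of the lowest tags over the sets was 15 there and 14 to 17 elsewhere, so tags were of similar number.

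**Figure D5:**
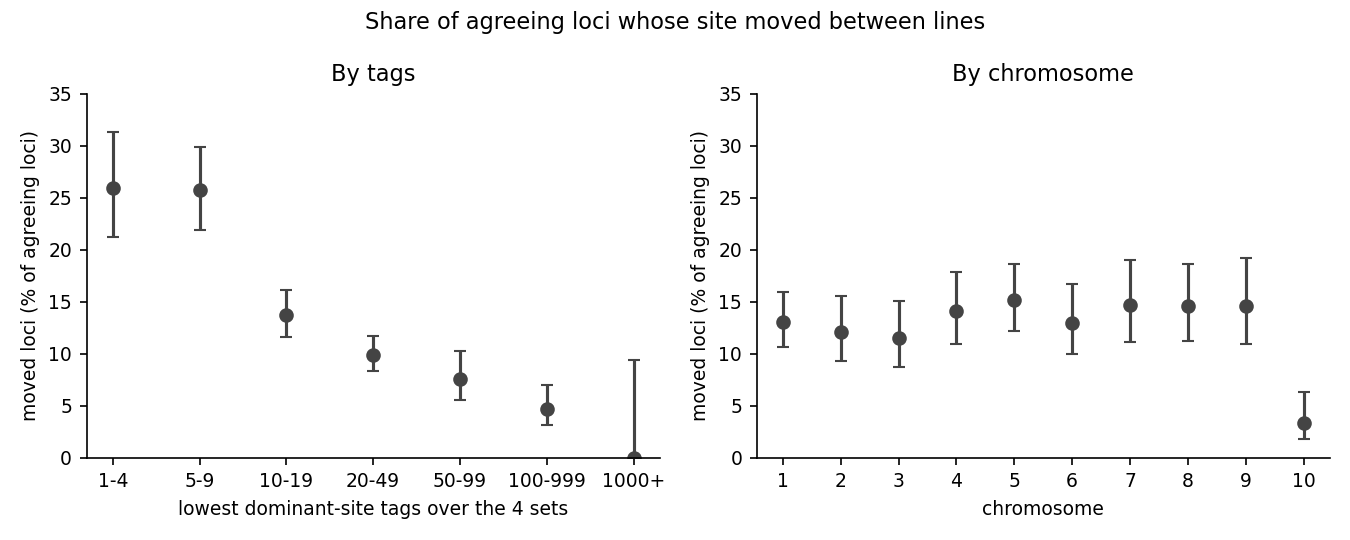
Moved loci as a share of agreeing loci in percent, by the lowest number of dominant-site tags over the 4 sets (left) and by chromosome (right); error bars are 95% Wilson intervals over loci. The share is 26.0% below 5 tags and 4.72% from 100 to 999, and chromosome 10 stands at 3.37% while the other chromosomes lie between 11.5% and 15.2%.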

How the data were processed

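CAGE tags from 8 maize libraries were mapped and clustered by the authors, with Bowtie2 2.0.4 per the submitters' processing notes. Not given in the sources used here are the genome build, the clustering tool and which libraries each set holds. The deposited signal is a power law of the tag number, whose exponent was 1.09, 0.888, 1.01 and 0.877 in B73_R, B73_S, Mo17_R and Mo17_S. Inverting it gave whole tags within 0.01 at 100% of dominant sites, 1267305, 2394924, 2797561 and 3409185 tags in the sets' 14568, 19880, 18358 and 22875 clusters. The deposited shape score is unnamed in the files and was used only in an alternative. Cluster numbers in the names run past the clusters listed, so the authors' full lists were longer. Starts were converted to count from 1.

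Clusters were merged and classified with Python 3.11.15, numpy 2.4.6, pandas 2.3.3 and scipy 1.17.1, and drawn with matplotlib 3.10.9. The merging was tested on simulated data. No count model was used, since no value per library was at hand. Dense runs are at least 10 clusters of a set with gaps of at most 2000 bp. The members, rules and comparisons were chosen with earlier results of these data known. Named loci are those with the highest minimum tags, the widest moves with at least 20 tags, the largest signal differences shared by both tissues, the most tags among separate positions, and the most tags at 1 and 2 bp. The lead of a dominant site and the chromosome comparison were added after the values had been seen. The gene table at hand is of another assembly and was not used here.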

Additional observations from a re-analysis of the deposited data

How the results depend on the processing

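Leaving out loci in dense runs, or merging loci from the stretches between the 10th and 90th percentiles, moved none of the 7 shares and medians tried beyond its 95% interval. With at least 20 tags in all 4 sets, moved loci were 8.14% of agreeing loci, 17.1% of them were 4-fold apart in signal between lines in roots and 8.84% in shoots, against 12.9%, 21.5% and 11.4%. With sites within 1 bp taken as the same, between tissues as well as between lines, more loci agreed, and 573 of 5213 (10.99%) had moved. The 4-fold share in roots was 26.5% with a pseudocount of 0.1. It was 17.3% after quantile normalization in roots, beside 6.04% of the 9804 loci, and 19.1% on tags in shoots, beside 5.78%. At 2-fold the shares were 54.2% in roots and 39.0% in shoots. No share over the 9804 loci stands beside the values at 20 tags, with the pseudocount of 0.1 or at 2-fold, so these show no excess at the moved loci. Moved loci sharp in all 4 sets were 17.5%, but 10.2% at 5 bp and 64.3% with a shape score above -1. Sites inside the 10th to 90th percentile stretch of all 4 clusters were 36.9%, against 56.2% for whole clusters. Among the 55 loci with a lead in all sets, chosen after seeing the data, 60.0% of Mo17-named sites were downstream. Of these 55 loci, 34.5% and 23.6% were 4-fold apart in roots and shoots, beside 11.9% and 3.56% of the 9804 loci. Sharp in all sets were 32.7% (21.8 to 45.9), beside 26.8% of the 9804 loci and 40.6% of the same-site loci. Each site lay inside all 4 clusters at 18.2%. The last share is partly set by how the lead was counted; the cause of the other moves was not tested. The 6 loci named for their signal kept direction and 4-fold size under the pseudocount and both rescalings. No replicate could be left out, and no paired analysis was possible because the columns carry no library or replicate number. Tag depth limits the site calls, since 317 of the moved loci had under 20 tags in a set.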
